A study of Homo sapiens with 6 samples.

Results

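The genes described here encode proteins of the junctions that hold epithelial cells together. They were picked by name, 36 of the 58735 genes in the count table: 8 of the adherens junction, 15 of the tight junction and its polarity partners, 11 of the desmosome, and EPCAM and GJA1, which belong to none of these. Het1A, a human oesophageal epithelial line immortalised with a viral T antigen, was compared after 5 days of bile acid exposure (3 libraries) and after vehicle (3 libraries). The bile acid cells spent 10 min of each day in medium brought to pH 4.0 with 100 µM of a mixture of 5 bile acids, deoxycholic acid and the conjugates glycocholic, glycodeoxycholic, glycochenodeoxycholic and taurocholic acid. The control cells received 0.1% DMSO, and the labels do not say whether their medium was acidified, so acid and bile acids cannot be told apart. All cells had 1% serum, starting 48 h ahead of treatment, and were harvested 24 h after the last exposure. The labels number the libraries as biological replicates 1 to 3 without saying whether they were separate cultures, so p-values measure the spread between these libraries.

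Adherens junctions join neighbouring cells through cadherins and nectins, which catenins and afadin couple to actin. Tight junctions seal the space between cells with claudins, occludin and related membrane proteins, on scaffolds of the ZO and cingulin families that polarity proteins place at the apical side. Desmosomes are spot welds: desmogleins and desmocollins bind plakoglobin and plakophilins, which desmoplakin ties to keratin filaments. In the stratified lining of the oesophagus, desmosomes give mechanical strength and claudins limit the entry of refluxed acid and bile.

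The libraries held between 27008714 and 28497721 gene counts each after bile acid and between 21006677 and 26218597 in controls. Control 2 stood apart from controls 1 and 3: the scaling factor (trimmed mean of M values, TMM) was 1.01 in each bile acid library, 0.851 in control 2 and 1.06 and 1.07 in the other controls, and control 2 held fewer counts on long genes. The members' fold changes printed below are therefore also given without it. The markers that define stratified squamous epithelium were almost absent. Of 9 fixed markers 8 averaged under 1 CPM, a count scaled to the size of its library, KRT13, KRT4 and IVL had 0 counts in every library, and KRT5 had at most 12 counts. Their sum, nearly all of it SFN, was between 38.2 and 42.0 CPM in bile acid libraries and between 22.7 and 76.5 CPM in controls, control 2 being the highest and controls 1 and 3 at 25.9 and 22.7 CPM. Keratins of simple epithelium (KRT8, KRT18, KRT19 and KRT7) summed to between 1361 and 1468 CPM in bile acid libraries and to 1062, 2364 and 906 CPM in controls 1 to 3. Without control 2, the sums of both lists were higher in every bile acid library than in the controls, as were SFN, KRT8, KRT18 and KRT7 singly, while KRT19 overlapped. Of 9 fibroblast markers 5 averaged under 1 CPM. The sum over all 9 ran between 398 and 535 CPM in bile acid libraries and was 446, 418 and 267 CPM in controls 1 to 3. Most of it came from COL1A1, VIM and THY1, which were abundant in every library. VIM had 174, 205 and 213 CPM in bile acid libraries and 147, 188 and 102 CPM in controls. Without control 2, VIM too was higher in every bile acid library, while COL1A1, THY1 and the sum overlapped. Of 5 leukocyte markers, PTPRC, CD3E and LYZ had 0 counts throughout, and CD14 made up most of the sum. That sum was between 12.8 and 16.8 CPM in bile acid libraries and between 9.89 and 13.0 CPM in controls. Control 2 was the highest control. With control 2 left out, the leukocyte sum and CD14 were also higher in every bile acid library than in the controls. The 4 endothelial markers summed to between 1.03 and 1.95 CPM in bile acid libraries and between 0.336 and 2.05 CPM in controls, with CDH5 at 0. The part of these other markers in the results was not tested.

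Per kilobase of gene, the junction genes of Het1A spanned more than 3 orders of magnitude. The levels below are TMM-scaled CPM per kb of exonic length. Highest were CTNNA1 and DSG2. The alpha-catenin gene CTNNA1, whose protein links cadherin complexes to actin, had 55.0 ± 5.77 in bile acid and 42.1 ± 7.44 in control libraries (SD, n = 3 each, here and below). DSG2, the desmoglein found in simple as well as stratified epithelia, had 47.7 ± 5.80 in bile acid and 48.4 ± 23.2 in control libraries. NECTIN2, with 37.1 ± 2.67 in bile acid and 34.1 ± 1.18 in control libraries, and PERP, a tetraspan desmosomal protein, with 33.2 ± 2.92 in bile acid and 34.6 ± 4.86 in control libraries, came next. In control cells the gaps between these 4 genes lay within the SD of DSG2. In bile acid cells the gap between CTNNA1 and DSG2 was little larger than their SDs, and that between DSG2 and NECTIN2 was larger. DSG3, the desmoglein of deep squamous layers, was at the bottom: it had 9, 6 and 2 counts in bile acid libraries and 0, 0 and 3 counts in controls, where 3 counts correspond to between 0.104 and 0.168 CPM. It was not tested. CLDN4 was the lowest of the tested members, at 0.456 ± 0.0801 in bile acid and 0.501 ± 0.263 in control libraries. Summed over all 36 genes, the levels were 410.1, 352 and 394 in bile acid libraries 1 to 3 and 403, 321 and 369 in controls 1 to 3. The adherens junction genes supplied 174, 152 and 181 of this in bile acid libraries and 163, 114 and 151 in controls. The 15 tight junction genes supplied only 71.1, 62.1 and 56.5 in bile acid libraries and 69.0, 72.7 and 62.0 in controls. The 11 desmosome genes gave 129, 114 and 131 in bile acid libraries and 140.3, 99.7 and 129.7 in controls. Groups overlapped in the tight junction and desmosome sums. In the adherens sum, control 1 was above bile acid library 2.

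**Figure D1:**
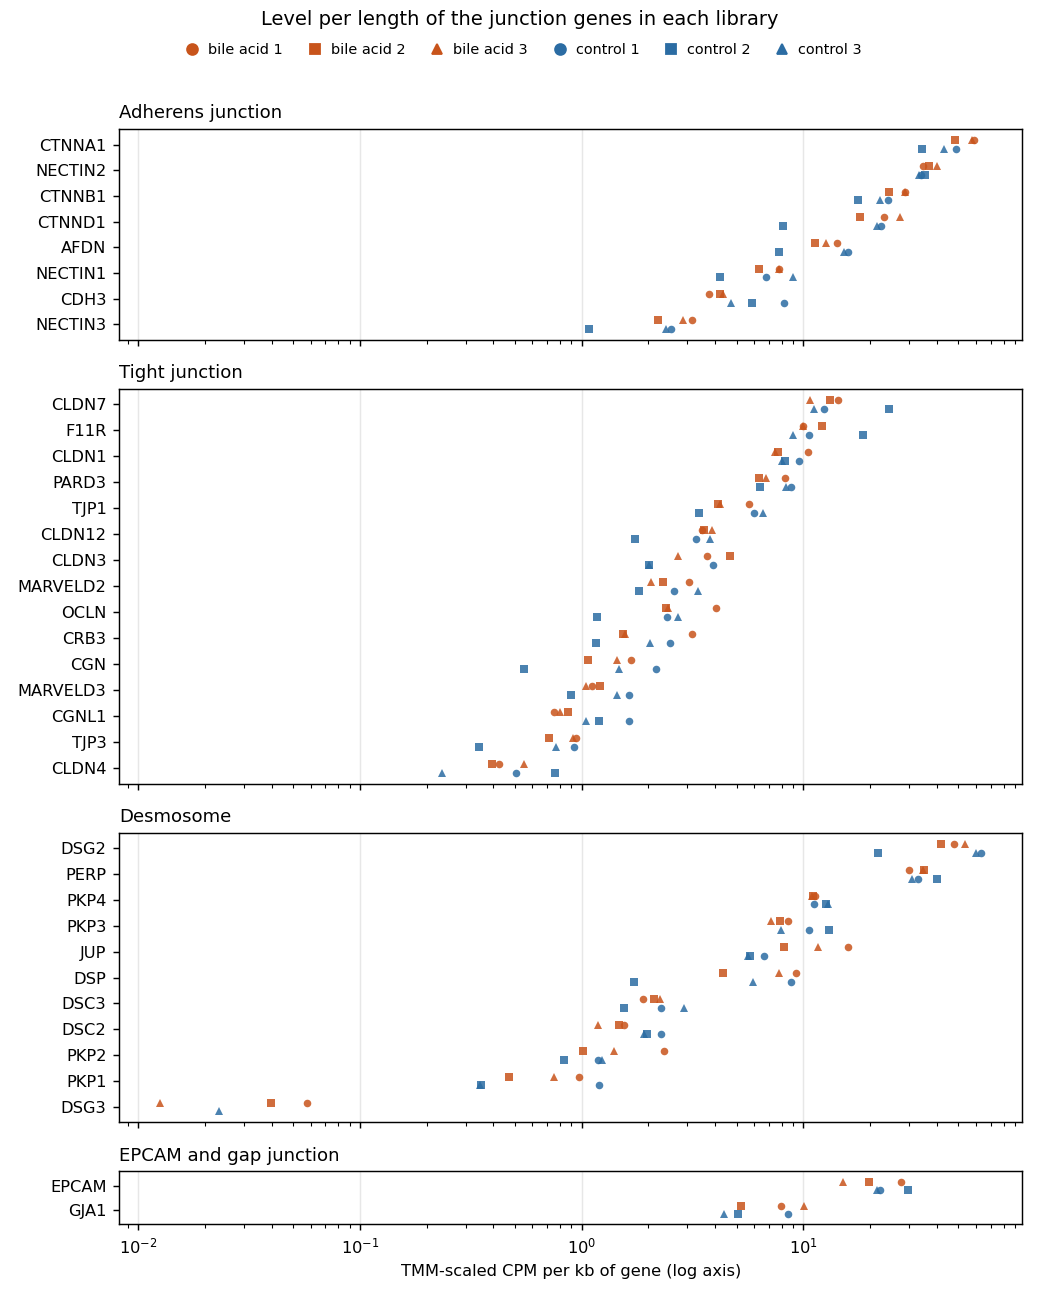
Level of each junction gene in each library, as TMM-scaled CPM per kb of exonic length on a log axis, by junction type, with bile acid libraries in orange and control libraries in blue. CTNNA1 stands highest in its panel, DSG2 leads the desmosome panel with control 2 apart at the left, and DSG3 lies far below the rest, its 2 controls at 0 not being drawn.

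In the comparison of bile acid with control cells, no junction gene passed the test. The quasi-likelihood test of edgeR with Benjamini-Hochberg adjustment called 0 of the 35 tested members at an adjusted p under 0.05, where it called 0 of 17743 genes tested (0%). limma-voom and DESeq2 called 0 members too, and DESeq2 called 14 of 19551 genes (0.0716%), each of them higher in bile acid cells. Adjusted p-values of the members in edgeR ran from 0.911 to 0.998. At an unadjusted p under 0.05 edgeR had 4 members, 11.4% of those tested, against 588 of all genes (3.31%), and limma-voom also had 4, against 528 (2.98%). The 4 of edgeR were JUP, which was higher in bile acid cells, and CDH3, CGNL1 and DSC2, which were lower. The members were chosen with earlier results of these data known, so their shares beside all genes, here and below, are descriptions only. The log2 fold change of bile acid over control was above 0 in 16 members and below 0 in 19, with a median of -0.02, beside a median of -0.01 over all genes tested, of which 48.8% were above 0. Without control 2 the counts were again 16 and 19, where 50.8% of all genes were above 0, and the median was -0.04. In bulk RNA, fewer expressing cells and less RNA per cell cannot be told apart.

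Few members separated the groups in every library. All 3 bile acid values lay above all 3 control values in 2 members, JUP and CTNNB1 (5.71% of those tested, against 5.29% of all genes), and below them in 3, CDH3, CGNL1 and DSC2 (8.57%, against 4.89% of all genes). With control 2 left out, 3 members lay wholly above (8.57%, against 12% of genes) and 9 wholly below (25.7%, against 12.9% of genes). The 3 above were JUP, CTNNB1 and NECTIN2. The 9 below were CDH3, CGNL1 and DSC2 together with AFDN, TJP1, MARVELD3, PARD3, DSG2 and DSC3. Without that library edgeR called 0 members and 1 of 18274 genes (0.00547%), and had 6 members at an unadjusted p under 0.05 (17.1%, against 7.98% of genes). DESeq2 called 148 of 17182 genes (0.861%), 136 higher in bile acid cells (0.792%) and 12 lower (0.0698%), with JUP as the only member among them. Both counts come from 3 bile acid libraries against 2 controls.

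**Figure D2:**
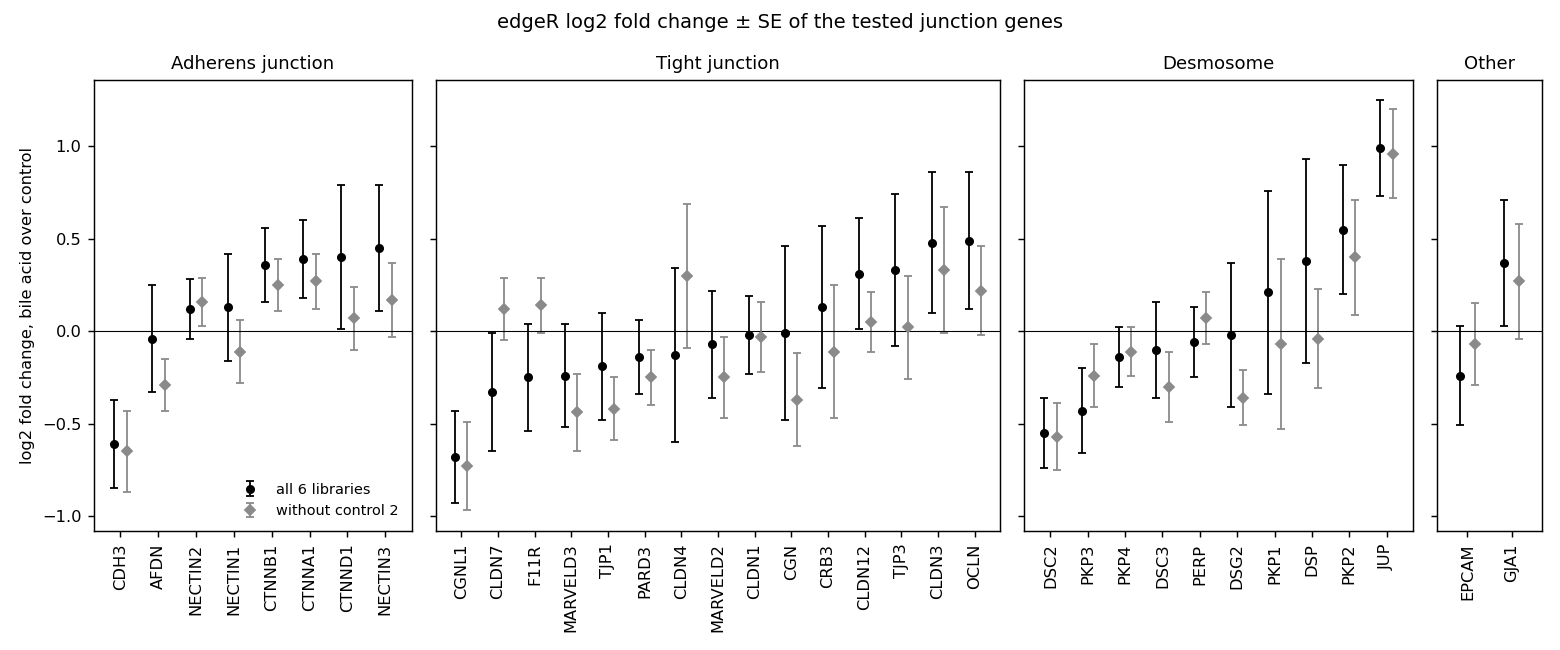
edgeR log2 fold change of bile acid over control for the 35 tested junction genes, with bars of 1 SE, from all 6 libraries (black circles) and without control 2 (grey diamonds). JUP is highest at 0.99 and CGNL1 lowest at -0.68 with all libraries, and DSP moves to -0.04 without control 2, against 0.38 with it.

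Plakoglobin, the product of JUP, is a catenin of both desmosomes and adherens junctions, and JUP had the largest fold change of the 35 tested members. JUP (ENSG00000173801, GRCh38 chr17:41754604-41786931, minus strand) had 78.2, 40.4 and 57.7 CPM in bile acid libraries 1 to 3 and 32.8, 28.3 and 27.9 CPM in controls 1 to 3. The lowest bile acid library was above the highest control, and bile acid library 1 stood at the top. The means were 58.8 ± 18.9 CPM in bile acid cells and 29.7 ± 2.75 CPM in control cells. The edgeR log2 fold change was 0.99 (SE 0.26, a fold of 1.98, unadjusted p = 0.00641, adjusted p = 0.911), and in the authors' deposited table it was 1.02 with an adjusted p of 0.331, where 19 of 14713 genes (0.129%) had one under 0.05. With all libraries DESeq2 gave 1.0 with an adjusted p of 0.452, and edgeR without control 2 gave 0.96 (SE 0.24, adjusted p = 0.335). DESeq2 without control 2, a setting chosen after the data were seen, gave 0.96 (SE 0.24) with an adjusted p of 0.0122. Over 19 alternatives the log2 fold change of JUP ran from 0.73, without bile acid library 1, to 1.21, without bile acid library 2, and its adjusted p from 0.0122 to 1.

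Because plakoglobin and beta-catenin occupy the same site on classical cadherins, their transcripts were also set against each other, as a description. Per length, there were 54.9, 33.6 and 40.8 units of JUP for each 100 of CTNNB1 in bile acid libraries, and 27.6, 32.6 and 25.5 in controls. The groups did not overlap, although bile acid library 2 and control 2 were close. Set against DSP, its partner at the desmosomal plaque, JUP measured 172, 188 and 150.5 per 100 in bile acid libraries and 75.7, 334 and 95.3 in controls, so control 2 lay above every bile acid library. Against DSG2, JUP measured 33.1, 19.5 and 21.9 per 100 in bile acid libraries and 10.5, 26.4 and 9.41 in controls. There control 2 lay between bile acid libraries 1 and 3, and the ratio of DSC2 to DSG2 overlapped as well. Of the 4 catenins, JUP made up 12.5%, 8.26% and 9.33% in bile acid libraries and 6.51%, 8.72% and 6.11% in controls, with control 2 again inside the bile acid range.

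Below are sequences before annotated starts of 3 of the genes whose groups did not overlap. They were taken from the RefSeq promoter table on GRCh38.p14, which held 39 windows for 27 members. Each is the longest stretch, within the 250 bases before an annotated start, that GENCODE places in no exon, shown before both starts of DSC2 in the table and before 1 of 2 for JUP, whose other window is exonic in 233 of its 250 bases. They are read 5′ to 3′ on the strand of the gene. The JUP stretch ends 54 bases before its start and the first DSC2 stretch 101 bases before its start. In 33 of the 39 windows the 50 bases after the start were found in a GENCODE transcript of the gene. This held for JUP and CGNL1 but for neither start of DSC2. The window of CTNNB1 was exonic in all of its 250 bases. Capitals mark the GC box (GGGCGG) in JUP, CGNL1 and the second DSC2 stretch, and in the first DSC2 stretch the E-box (CACCTG on the other strand). JUP is chr17:41786766-41786797 (minus strand), CGNL1 is chr15:57376271-57376504 (plus strand) and the DSC2 stretches are chr18:31102523-31102671 and chr18:31101261-31101510 (minus strand). Only the first DSC2 stretch lies outside the annotated span of its gene. The JUP, CGNL1 and second DSC2 stretches lie inside that span, in no exon, so they are not upstream of the whole gene.
JUP: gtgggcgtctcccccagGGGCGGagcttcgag
CGNL1: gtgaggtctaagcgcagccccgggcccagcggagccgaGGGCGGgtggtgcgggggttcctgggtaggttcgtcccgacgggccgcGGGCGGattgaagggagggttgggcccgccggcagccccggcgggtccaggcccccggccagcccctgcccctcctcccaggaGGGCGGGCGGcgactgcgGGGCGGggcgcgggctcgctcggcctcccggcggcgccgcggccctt
DSC2, first start: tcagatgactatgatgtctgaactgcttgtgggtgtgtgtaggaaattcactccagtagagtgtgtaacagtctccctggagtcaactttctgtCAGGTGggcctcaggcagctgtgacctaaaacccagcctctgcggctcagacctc
DSC2, second start: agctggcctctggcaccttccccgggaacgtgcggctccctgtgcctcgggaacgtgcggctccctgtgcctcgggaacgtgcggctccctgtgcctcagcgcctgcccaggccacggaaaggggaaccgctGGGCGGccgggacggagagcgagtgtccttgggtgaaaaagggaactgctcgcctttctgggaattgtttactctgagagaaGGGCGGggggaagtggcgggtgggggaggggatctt

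Of the bases printed, G and C made up 80.8% in CGNL1, 75.0% in JUP, and 51.7% and 66.8% before the first and second start of DSC2. On either strand, GGGCGG was found in 29 of the 39 member windows (74.4%) and in 42.6% of all 35116 windows, and CACCTG, the E-box read by SNAI and ZEB factors, in 11 (28.2%) and in 17.5%. The TATA box, TATAAA, was found in 0 member windows and in 10.7% of all windows. CCAAT was found in 9 member windows (23.1%) and in 32.0% of all. The AP-1 motif TGANTCA was found in 3 member windows (7.69%) and in 6.57% of all, GCGNGGGCG of EGR1 in 4 (10.3%) and 8.41%, and CATTCC of TEAD factors in 0 and 11.9%. AACCNGTT of GRHL factors, which act on epithelial junction genes, was found in 1 (2.56%) and in 1.49%. These are matches of letters, the windows of a gene can overlap, and GGGCGG can overlap itself and GCGNGGGCG.

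**Figure D3:**
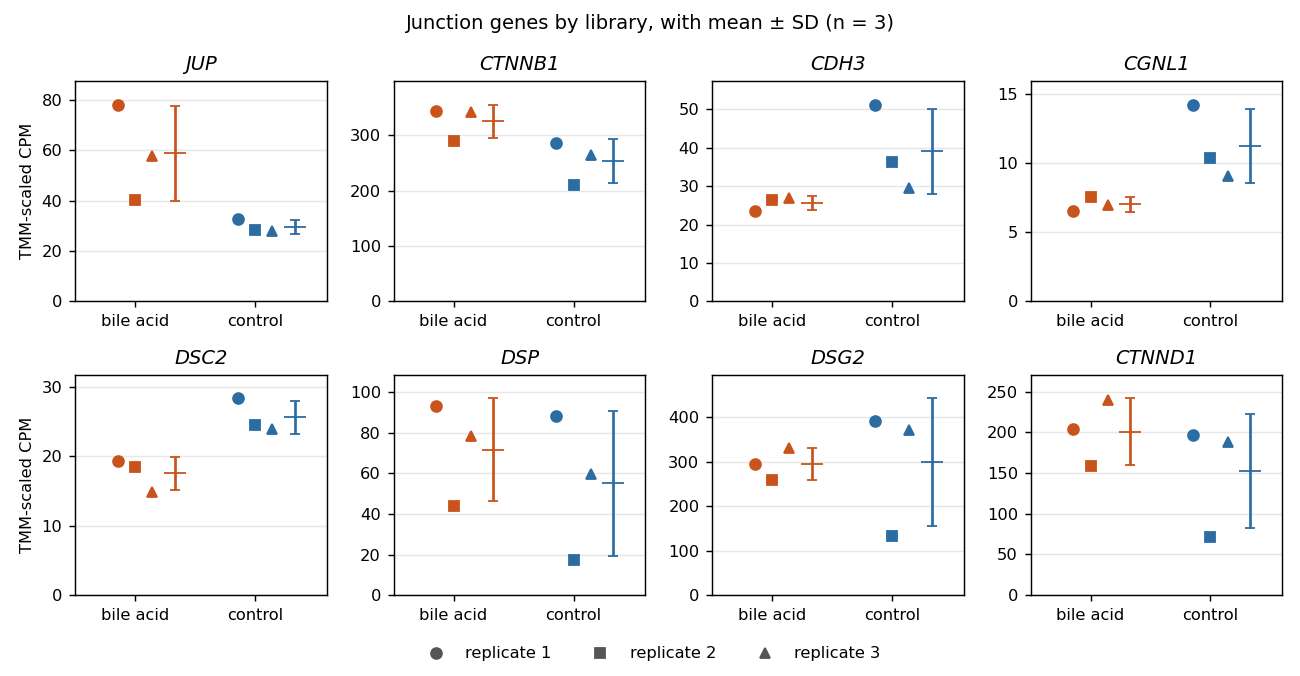
TMM-scaled CPM of 8 junction genes in each of the 3 bile acid (orange) and 3 control (blue) libraries, with mean ± SD beside the points and marker shapes for replicates 1 to 3. JUP and CTNNB1 are higher in every bile acid library, CDH3, CGNL1 and DSC2 lower in every one, and in DSP, DSG2 and CTNND1 control 2 lies far below the other libraries.

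Among the adherens junction genes, 6 of 8 had a log2 fold change above 0 with all libraries and 5 of 8 without control 2, with medians of 0.24 and 0.12. CDH3, which encodes P-cadherin, a classical cadherin of basal epithelial cells, had 23.4, 26.3 and 27.0 CPM in bile acid libraries and 51.2, 36.4 and 29.5 CPM in controls. Its bile acid libraries lay close together, while the controls were spread out and control 3 was only just above the highest bile acid library. The log2 fold change was -0.61 (SE 0.24, edgeR adjusted p = 0.911) and -0.65 without control 2. Over the 19 alternatives it ran from -0.77, without control 3, to -0.36, without control 1. Of its exonic bases, 11.1% overlap an antisense gene, and the counting may not have used strand.

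The catenins were abundant. CTNNB1, beta-catenin, had 344, 290.3 and 342 CPM in bile acid libraries and 286, 209.6 and 264 CPM in controls, with a log2 fold change of 0.36 (SE 0.20, edgeR adjusted p = 0.911) and of 0.25 without control 2. Its groups did not overlap, bile acid library 2 lying just above control 1. CTNNA1 had 520.4, 427 and 509 CPM in bile acid libraries and 432, 302 and 381 CPM in controls, where control 1 lay above bile acid library 2. CTNND1 encodes p120 catenin, which keeps cadherins at the cell surface. It had 204, 159 and 240.2 CPM in bile acid libraries and 197, 71.5 and 188 CPM in controls. Control 2 was far below the other libraries, and the log2 fold change was 0.40 (SE 0.39) with it and 0.07 (SE 0.17) without it.

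Nectins, the immunoglobulin-like adhesion molecules that afadin anchors, overlapped between groups in each of the 3 genes with all libraries. NECTIN2 had 129, 139 and 149 CPM in bile acid libraries and 127, 132 and 124 CPM in controls. Per length it supplied 78.7% ± 2.64 of the sum of these 3 nectins in bile acid and 79.9% ± 6.45 in control cells. NECTIN1 had 59.7, 48.5 and 60.0 CPM in bile acid libraries and 52.1, 32.5 and 69.5 CPM in controls. NECTIN3 had 19.4, 13.7 and 17.8 CPM in bile acid libraries and 15.7, 6.66 and 14.8 CPM in controls, control 2 being lowest in both genes. AFDN, which encodes afadin, had 194, 154 and 174 CPM in bile acid libraries and 219, 106 and 210.1 CPM in controls. All 3 of its bile acid values lay between control 2 and the other controls, and its log2 fold change was -0.04 (SE 0.29) with control 2 and -0.29 (SE 0.14) without it.

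The tight junction genes had a median log2 fold change of -0.07 with 5 of 15 above 0, and of -0.03 with 7 of 15 above 0 without control 2. Of the membrane proteins with a MARVEL domain, occludin is the best known. OCLN had 27.4, 16.2 and 16.6 CPM in bile acid libraries and 16.5, 7.90 and 18.3 CPM in controls, so the groups overlapped. Its share of the sum of the 3 MARVEL members per length was 49.2%, 40.3% and 44.2% in bile acid libraries and 36.4%, 30.1% and 36.1% in controls, without overlap. MARVELD2, tricellulin of corners where several cells meet, had 16.4, 12.5 and 10.99 CPM in bile acid libraries and 14.0, 9.74 and 18.0 CPM in controls. MARVELD3 had 7.17, 7.79 and 6.78 CPM in bile acid libraries and 10.5, 5.77 and 9.29 CPM in controls, where control 2 was the only control below the bile acid libraries. Over 8 families of members, 27 such shares were computed. Besides that of OCLN, those of TJP1 and TJP3 did not overlap between groups, and these 2 are complements, so they are a single observation. In CPM, 5.29% of all genes tested were wholly higher and 4.89% wholly lower. No such background was computed for shares within families, so these separations are descriptions only.

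Claudins set which ions and molecules pass between cells. Of the 5 claudins among the members, CLDN7 was the most abundant, with 43.7% ± 1.28 of their sum per length in bile acid and 50.5% ± 13.1 in control cells, and CLDN1 came second with 29.3% ± 3.17 in bile acid and 28.8% ± 5.64 in control cells. CLDN7 had 35.8, 32.8 and 26.7 CPM in bile acid libraries and 30.8, 60.9 and 28.0 CPM in controls. Control 2 held the highest value, and the log2 fold change was -0.33 (SE 0.32) with it and 0.12 (SE 0.17) without it. CLDN1 had 38.4, 28.0 and 27.4 CPM in bile acid libraries and 35.1, 30.4 and 29.4 CPM in controls, with a log2 fold change of -0.02 and, without control 2, of -0.03. CLDN12, linked to calcium passage in the gut, had 23.6, 24.1 and 26.1 CPM in bile acid libraries and 22.1, 11.7 and 25.7 CPM in controls. Both overlapped between groups. CLDN3 and CLDN4, claudins of glandular and intestinal epithelia, were low. CLDN3 had 4.71, 5.92 and 3.48 CPM in bile acid libraries and 4.96, 2.58 and 2.56 CPM in controls. CLDN4 had 2.00, 1.86 and 2.57 CPM in bile acid libraries and 2.37, 3.58 and 1.11 CPM in controls, and its log2 fold change was -0.13 (SE 0.47) with control 2 and 0.30 (SE 0.39) without it. The claudins thus overlapped between groups in each of the 5 genes. F11R, which encodes the junctional adhesion molecule JAM-A, had 50.6, 61.5 and 50.2 CPM in bile acid libraries and 53.9, 94.2 and 45.3 CPM in controls. As in CLDN7 and CLDN4, control 2 was the highest of the 6 libraries. Exons of other genes overlap 36.6% of F11R, 18.1% of MARVELD3, 16.3% of CLDN12 and 12.3% of CLDN7, so these values are uncertain.

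On the cytoplasmic side, CGNL1 was the only tight junction gene whose groups did not overlap with all libraries. It encodes paracingulin, an adaptor found at tight and adherens junctions. CGNL1 (ENSG00000128849, chr15:57375967-57550727, plus strand) had 6.49, 7.53 and 6.95 CPM in bile acid libraries and 14.2, 10.4 and 9.08 CPM in controls. The bile acid libraries lay close together and control 1 was the highest. The log2 fold change was -0.68 (SE 0.25, unadjusted p = 0.0269, edgeR adjusted p = 0.911), -0.73 without control 2, and between -0.81 and -0.32 over the 19 alternatives. Its paralog CGN, cingulin, had 11.1, 7.05 and 9.53 CPM in bile acid libraries and 14.3, 3.64 and 9.76 CPM in controls, with a log2 fold change of -0.01 (SE 0.47) and, without control 2, of -0.37 (SE 0.25).

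TJP1, the scaffold ZO-1, had 63.9, 46.2 and 47.4 CPM in bile acid libraries and 67.8, 38.0 and 74.1 CPM in controls. Its log2 fold change was -0.19 (SE 0.29) and, without control 2, -0.42 (SE 0.17, edgeR adjusted p = 0.564). TJP3, ZO-3 of epithelia, had 3.99, 3.00 and 3.86 CPM in bile acid libraries and 3.92, 1.46 and 3.24 CPM in controls. Per length TJP3 was 14.3%, 14.8% and 17.9% of these 2 scaffolds in bile acid libraries and 13.4%, 9.29% and 10.5% in controls, without overlap, although bile acid library 1 and control 1 differed by under 1 percentage point. PARD3, a scaffold of the PAR polarity complex, had 53.8, 41.3 and 44.1 CPM in bile acid libraries and 57.1, 41.5 and 54.3 CPM in controls. CRB3, the epithelial Crumbs protein, had 5.03, 2.45 and 2.50 CPM in bile acid libraries and 3.99, 1.85 and 3.24 CPM in controls. Bile acid library 2 was the lowest of its group in both. Neither polarity gene separated the groups with all libraries.

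Of the tested members, the desmosome genes held both the highest fold change, that of JUP, and several close to 0. Their median was -0.04 over 10 tested members and -0.09 without control 2. DSG2 supplied 93.0% ± 0.959 of the sum of the 4 desmosomal cadherins among the members, per length, in bile acid and 90.6% ± 4.00 in control cells. It had 296, 259 and 331 CPM in bile acid libraries and 393, 134 and 371 CPM in controls. Controls 1 and 3 lay above every bile acid library and control 2 below every one, so the log2 fold change was -0.02 (SE 0.39) with all libraries and -0.36 (SE 0.15, edgeR adjusted p = 0.573) without control 2. DSC2 (ENSG00000134755, chr18:31058840-31102522, minus strand) encodes desmocollin-2, the desmocollin of simple and stratified epithelia. It had 19.3, 18.4 and 14.9 CPM in bile acid libraries and 28.4, 24.6 and 24.0 CPM in controls, control 2 lying next to control 3. The groups did not overlap, and the log2 fold change was -0.55 (SE 0.19, unadjusted p = 0.0247, edgeR adjusted p = 0.911) and -0.57 without control 2, with a range of -0.74 to -0.34 over the alternatives. DSC3, a desmocollin of squamous epithelia, had 13.3, 15.0 and 16.0 CPM in bile acid libraries and 16.1, 10.98 and 20.4 CPM in controls.

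In the desmosomal plaque, JUP was the only gene whose groups did not overlap. DSP, desmoplakin, had 93.1, 43.9 and 78.4 CPM in bile acid libraries and 88.6, 17.3 and 59.7 CPM in controls. Library 2 was lowest in both groups, and the log2 fold change was 0.38 (SE 0.55) with control 2 and -0.04 (SE 0.27) without it. Of the plakophilins, PKP4 and PKP3 were the most abundant per length, with 52.4% ± 3.15 and 36.8% ± 1.56 of the 4 summed in bile acid cells, and 50.2% ± 6.42 and 42.6% ± 6.79 in control cells. PKP4, which also binds classical cadherins, had 107, 105 and 104 CPM in bile acid libraries and 106, 120.5 and 123 CPM in controls. PKP3 had 32.3, 29.6 and 26.9 CPM in bile acid libraries and 40.3, 49.6 and 29.9 CPM in controls, with a log2 fold change of -0.43 (SE 0.23) and, without control 2, of -0.24. Control 3 of PKP3 lay inside the bile acid range, as control 1 of PKP4 did. PKP2, a plakophilin of simple epithelia and heart, had 16.5, 7.16 and 9.87 CPM in bile acid libraries and 8.34, 5.88 and 8.73 CPM in controls, with a log2 fold change of 0.55 (SE 0.35) and of 0.40 without control 2. It was 0.16 without bile acid library 1 and 0.79 without bile acid library 2. Bile acid library 1 was the highest, and library 2 was the lowest of each group. PKP1, the plakophilin of suprabasal squamous layers, had 6.06, 2.92 and 4.66 CPM in bile acid libraries and 7.40, 2.18 and 2.17 CPM in controls. PERP had 128, 151 and 149 CPM in bile acid libraries and 140.4, 172 and 133 CPM in controls. Neither the plakophilins nor PERP separated the groups.

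EPCAM, an adhesion molecule of simple epithelia that binds claudins, had 69.1, 49.7 and 37.9 CPM in bile acid libraries and 55.8, 74.7 and 54.2 CPM in controls. GJA1, which encodes the gap junction channel connexin 43, had 27.2, 17.9 and 34.2 CPM in bile acid libraries and 29.2, 17.4 and 14.9 CPM in controls. Both overlapped between groups, with log2 fold changes of -0.24 (SE 0.27) for EPCAM and 0.37 (SE 0.34) for GJA1, and of -0.07 and 0.27 without control 2. Leaving out each library in turn moved EPCAM between -0.49, without bile acid library 1, and -0.05, without bile acid library 3. GJA1 moved between 0.14, without bile acid library 3, and 0.72, without control 1.

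Control 2 moved many of these values. It was the lowest of the 3 controls in 19 of the 35 tested members and the highest in 7, and the lowest of all 6 libraries in 18. Set against the mean of the other controls, its log2 difference ran from -2.10 in DSP to 1.05 in CLDN7. The 18 members of at most 6236 bp had a median difference of -0.12, and the 17 longer ones of -0.78. Spearman's rho between length and this difference was -0.358 over the 35 members, beside -0.327 over all 17743 genes tested, a description within a single library. Leaving out control 2 turned the sign of 8 members: NECTIN1, CLDN4, CLDN7, F11R, CRB3, PKP1, DSP and PERP. In JUP, CDH3, CGNL1 and DSC2 control 2 differed from the other controls by between -0.17 and -0.09, and their fold changes were about as large without it.

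**Figure D4:**
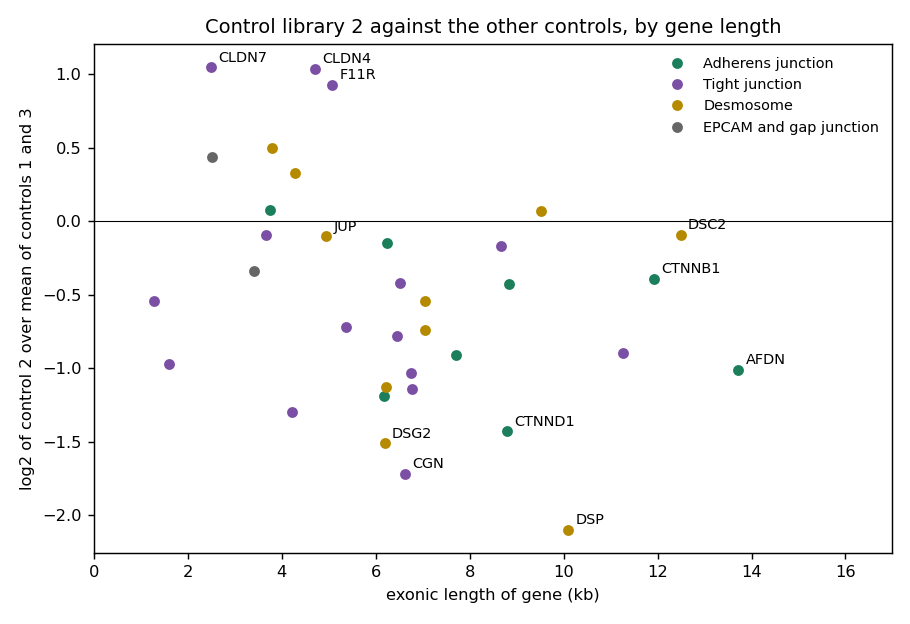
log2 ratio of control 2 to the mean of the other controls for the 35 tested junction genes, against exonic gene length in kb, coloured by junction type. CLDN7 at 1.05 is highest and DSP at -2.10 lowest, and the 17 genes over 6236 bp have a median of -0.78, against -0.12 for the 18 others.

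A further 71 genes of the same junctions, gap junctions included, also had no gene that passed the test. Of the 49 tested, edgeR called 0, with 1 at an unadjusted p under 0.05, and DESeq2 called 0. Their log2 fold changes were above 0 in 32 and below 0 in 17, with a median of 0.09, beside -0.01 over all genes. Without control 2 the counts were 25 above 0 and 24 below, 13 genes having changed sign, and the median was 0.01. All bile acid libraries lay above all controls in 3 and below them in 0, where 5.29% and 4.89% of all genes did so. The 3 highest in mean FPKM were LSR, a protein of the same corners as tricellulin, PVR, a nectin-like receptor, and AJUBA, a LIM protein at adherens junctions, with log2 fold changes of -0.08 (SE 0.23), -0.13 (SE 0.19) and 0.09 (SE 0.17), and of 0.16, -0.01 and 0.08 without control 2.

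The authors' deposited table of Gene Ontology terms gave the junction terms positive normalized enrichment scores (NES), which stand for higher ranks in bile acid cells if the ranking follows their fold changes. Neither the ranking nor the tool is stated in the sources used. In the authors' deposited table, cell-cell junction organization had 195 genes, an NES of 2.11 and an adjusted p of 4.82e-08, and the 77 core genes behind that score included 9 of the members: CTNNB1, CTNNA1, OCLN, CLDN3, TJP3, JUP, PKP2, DSP and GJA1. Of these 9, JUP and CTNNB1 were higher in every bile acid library, and the log2 fold change of DSP was below 0 without control 2. Epithelial cell-cell adhesion had 16 genes and an NES of 2.30 with an adjusted p of 0.000172 in the authors' deposited table, its core of 13 holding CTNNA1, JUP and DSP. Tight junction organization had an NES of 1.77 (adjusted p = 0.00226) and adherens junction organization one of 1.78 (adjusted p = 0.00551) in the authors' deposited table, with 2 members in the core of each. The table held 0 terms on desmosomes. These scores rank genes within the same 6 libraries, control 2 included, and are not independent of the values above.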

How the data were processed

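RNA of 6 Het1A libraries was sequenced as paired-end reads of 150 bp, per the labels' protocols. The submitters' processing notes name HISAT2 2.0.5, featureCounts and DESeq2 as tools and GRCh38 as the build. The annotation and the use of strand in counting are not given in the sources used here; the exonic lengths of the 36 members match GENCODE release 29.

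The authors deposited whole-number counts per gene, FPKM, and normalized counts, a signal equal to whole reads divided by a size factor per library. From that signal 100% of values came out whole within 0.001, and edgeR on these reads called 0 genes. The recovered reads are not the deposited counts. They cover 31530 genes, against 58735 in the count table, and their totals were between 3.84% and 4.2% higher per library. The ratio of the denominator behind the authors' deposited FPKM to the count total was 0.999 in control 2 and between 1.181 and 1.225 elsewhere. The TMM factor was likewise lowest in control 2 (0.851) and highest in control 3 (1.07), so this ratio alone does not show a fault in the FPKM. Levels per length were computed from TMM-scaled counts. Per the file headers, the deposited comparison holds log2 fold changes and p-values, and the deposited Gene Ontology table holds an enrichment score, p-values and, as other values, the set size.

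Groups came from the labels. edgeR 4.0.16 (R 4.3.3) tested 17743 genes passing filterByExpr with TMM factors and no covariates; SE is the log2 fold change over the root of F. limma 3.58.1 and DESeq2 1.42.0 served as alternatives, with RLE factors, no filter, log2(FPKM + 1) or log2(FPKM + 0.1), a mean FPKM of at least 0.5, a lowess length trend (span 0.3) removed, a replicate block, and each library left out. The fitting script was tested on simulated data. Every member is accounted for, with values per library where it passed the filter; of the 71 further genes, those called, or else the 3 highest in mean FPKM, are named. Members and lists were chosen with earlier results of these data known. Counts of 3 correspond to between 0.104 and 0.168 CPM; such floors cover counting error only.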

Additional observations from a re-analysis of the deposited data

How the results depend on the processing

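edgeR called 0 genes with all libraries; DESeq2 called 14, and, in a choice made after seeing the data, 148 without control 2, then including 1 member (JUP) and 1 further junction gene. Leaving out each library in turn gave edgeR between 0 and 1 genes and 0 members. Of 35 members, 21 kept their sign under all 19 alternatives, 17 of them planned, and 65 of 664 values changed sign. The log2 fold changes that changed sign were, by setting: DESeq2, CGN 0.01; limma-voom, AFDN 0.03, CLDN4 0.05, CGN 0.12 and DSG2 0.14; no filter, CLDN1 0.02, CGN 0.02 and DSG2 0.01; length trend removed, with or without the block, CGN 0.09 and DSG2 0.05; recovered reads, CGN 0.01; log2(FPKM + 1), with or without a mean of at least 0.5, CGN 0.03 and DSG2 0.09; log2(FPKM + 0.1), AFDN 0.01, CGN 0.13 and DSG2 0.10. Without control 2, DESeq2 gave NECTIN1 -0.11, CLDN4 0.31, CLDN7 0.12, F11R 0.14, CRB3 -0.11, PKP1 -0.07, DSP -0.04 and PERP 0.07, and the length-corrected values were NECTIN1 -0.08, CLDN4 0.37, CLDN7 0.09, F11R 0.13, CRB3 -0.18, DSP -0.04 and PERP 0.05. With each library left out in turn, values ranged over -0.29 to 0.39 for CRB3, -0.08 to 1.07 for PKP1, -0.13 to 0.07 for PERP, -0.29 to 0.14 for AFDN, -0.19 to 0.08 for CLDN1, -0.37 to 0.46 for CGN, -0.36 to 0.23 for DSG2, -0.25 to 0.17 for MARVELD2, -0.11 to 0.41 for NECTIN1, -0.46 to 0.30 for CLDN4, -0.52 to 0.12 for CLDN7, -0.44 to 0.14 for F11R, -0.04 to 0.90 for DSP and -0.30 to 0.13 for DSC3. The cause was not tested. With the replicate number as a block edgeR called 0 genes, the members' median was 0.12, and AFDN was 0.03, CGN 0.16 and DSG2 0.12. Same-numbered libraries deviated together with correlations of 0.307, 0.382 and 0.0979, and 4 of 6 libraries correlated best with their own number. The labels do not call the numbers pairs, and the main test did not take them as pairs. These values do not settle whether they are. With 3 libraries a group, the SE of the members ran up to 0.55 on the log2 scale, and low members such as CLDN4, TJP3 and CRB3 allow only wide statements.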

Other observations

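Among the 71 further junction genes, CTNNAL1, which encodes an alpha-catenin-like protein, was picked out after its values were seen. It had 87.6, 58.0 and 75.3 CPM in bile acid libraries and 49.3, 57.0 and 42.0 CPM in controls. The lowest bile acid library was just above control 2, the highest control. The edgeR log2 fold change was 0.57 (SE 0.22, unadjusted p = 0.034, adjusted p = 0.911), and DESeq2 without control 2 called it, as it called JUP. CTNNAL1, GJC1 and VEZT were the 3 of the 49 tested genes of that list whose bile acid libraries all lay above the controls. Among all genes tested, 5.29% did so. In GJC1 the lowest bile acid library had 86.6 CPM and the highest control 86.5 CPM. In VEZT these were 54.2 and 53.9 CPM. The log2 fold changes of GJC1 and VEZT were 0.11 (SE 0.16) and 0.23 (SE 0.22), and 0.06 each without control 2.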
